A study of Homo sapiens with 10 samples.

Results

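The genes described here are 6 Toll-like receptors (TLR1, TLR2, TLR4, TLR6, TLR7 and TLR8), 1 receptor of related build (CD180), the small partner proteins of TLR4 and CD180 (LY96 and LY86) and CD14, which hands bacterial lipopolysaccharide (LPS) to TLR4. They were chosen by gene symbol, and each of the 10 symbols was carried by 1 transcript cluster of the array, of 21214 clusters with a symbol. RNA was measured in THP-1 cells, a human monocytic leukaemia line that takes on a macrophage form after treatment with the phorbol ester PMA. All groups received PMA for 24 h and then a treatment for 24 h. The treatments were punicalagin (10 µM, 3 arrays, cells of passages 6, 7 and 8), myricetin (2 arrays, passages 7 and 8), quercetin (2 arrays, passages 7 and 8) and the solvent DMSO (3 arrays, passages 6, 7 and 8). For punicalagin and DMSO the PMA concentration was 160 nM. The labels give neither the dose of myricetin and quercetin nor the PMA concentration of their arrays, so that a difference of these arrays from the DMSO or punicalagin arrays cannot be told apart from a difference in PMA concentration. Punicalagin is an ellagitannin of pomegranate, whereas myricetin and quercetin are plant flavonols, and myricetin has an additional hydroxyl group on its B ring. The series was made to find which genes of macrophages respond to punicalagin. As a model it is limited to 1 leukaemia line, and the labels call the arrays of a group biological replicates.

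Toll-like receptors bind molecules of microbes and pass the signal through adaptors to NF-κB and to interferon genes. TLR4 detects LPS together with LY96, also called MD-2, after CD14 has delivered the lipid. CD180, also called RP105, has the outer part of a Toll-like receptor but no signalling domain and pairs with LY86, also called MD-1, and in myeloid cells it is known to dampen TLR4 signalling. TLR2 pairs with TLR1 or TLR6 at the cell surface to detect bacterial lipoproteins, while TLR7 and TLR8 detect single-stranded RNA in endosomes.

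The bases before the transcription start are shown for 4 of these genes because they are the matched members whose promoter held the motif GGAAGT. It is an extended form of the core motif of ETS factors, the family of PU.1, a factor that drives many myeloid genes. The shorter core alone was not searched or marked. RefSeq promoters (GRCh38.p14) were matched for 7 of the 10 genes. TLR1, LY96 and TLR7 are named only. Each line gives the 250 bases before the start, 5′ to 3′ on the strand of the gene, and the capitals mark GGAAGT or its reverse complement.
TLR4 (chr9:117704153-117704402, plus strand): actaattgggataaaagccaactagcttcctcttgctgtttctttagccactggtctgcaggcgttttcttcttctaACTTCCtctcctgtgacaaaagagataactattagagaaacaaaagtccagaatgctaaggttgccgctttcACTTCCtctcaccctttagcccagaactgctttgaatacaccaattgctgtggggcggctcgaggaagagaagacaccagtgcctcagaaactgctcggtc
CD180 (chr5:67196800-67197049, minus strand): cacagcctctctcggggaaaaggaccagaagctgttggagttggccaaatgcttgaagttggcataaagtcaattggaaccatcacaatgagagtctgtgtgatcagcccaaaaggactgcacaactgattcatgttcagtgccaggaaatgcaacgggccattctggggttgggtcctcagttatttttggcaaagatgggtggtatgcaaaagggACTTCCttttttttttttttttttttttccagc
TLR2 (chr4:153684030-153684279, plus strand): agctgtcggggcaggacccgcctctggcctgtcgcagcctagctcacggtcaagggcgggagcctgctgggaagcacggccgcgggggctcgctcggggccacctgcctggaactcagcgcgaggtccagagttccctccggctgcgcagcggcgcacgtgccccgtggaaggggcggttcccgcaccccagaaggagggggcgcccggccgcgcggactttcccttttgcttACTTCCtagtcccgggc
TLR8 (chrX:12906370-12906619, plus strand): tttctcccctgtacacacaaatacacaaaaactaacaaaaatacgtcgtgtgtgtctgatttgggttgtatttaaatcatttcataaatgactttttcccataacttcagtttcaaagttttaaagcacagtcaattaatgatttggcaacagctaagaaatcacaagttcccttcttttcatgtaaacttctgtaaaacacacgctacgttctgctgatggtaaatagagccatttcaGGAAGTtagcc
The motif was searched as GGAAGT or its reverse complement ACTTCC and was found in 19.5% of 35116 promoters of the same length. It began 173 and 101 bases before the start in TLR4, 33 in CD180, 17 in TLR2 and 11 in TLR8, on the opposite strand in the first 3 of these genes and on the gene's strand in TLR8. The AP-1 motif TGAGTCA, with its reverse complement TGACTCA, was found in 4.2% of the promoters and in 1 of the 7 members, CD14, where it began 223 bases before the start. None of the 7 matched members held both motifs. A match describes these letters and not a bound site.

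All values are RMA log2 intensities, on which a difference of 1 is a doubling. The lower quartile of an array lay between 3.55 and 3.72, the median between 5.14 and 5.25 and the upper quartile between 6.73 and 6.85. The arrays correlated with each other at 0.964 to 0.995. Of 10 measured macrophage and monocyte markers, 8 lay above the upper quartile on all 10 arrays, CD163 did not, and MRC1 lay below the lower quartile on all 10. The mean of these markers was 9.41 to 9.90 in the punicalagin arrays, 9.12 to 9.19 with myricetin, 9.54 to 9.69 with quercetin and 8.91 to 9.19 with DMSO, so that it was higher in both the punicalagin and the quercetin arrays than in the DMSO arrays. None of the markers of T cells, B cells, epithelium, fibroblasts or endothelium lay above the upper quartile on all arrays. Among the members, the punicalagin array of passage 8 lay apart from the others of its group. In the punicalagin array of passage 8, 8 of 10 members lay below both other punicalagin arrays (33.1% of all clusters did), with a median difference of -0.64 against -0.0016 over all clusters. TLR4 lay above both by 0.13 relative to their mean. The punicalagin array of passage 7 had the highest CD14 value of its group (8.88, against 7.68 and 6.30). LY96 was highest in that of passage 6 (5.55, against 5.25 and 4.37). Whether the punicalagin array of passage 7 lay apart over all clusters was not computed. The part of the marker levels and of these arrays in the results was not tested. Results without 1 of these arrays are given beside those it changes. In bulk RNA, more cells with a transcript and more transcript per cell cannot be told apart.

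Punicalagin raised the RNA of 4 of the 10 genes relative to DMSO (TLR4, CD180, TLR1 and TLR8), and none fell. Of these TLR8 was dim, below the lower quartile on every array. The criterion was an adjusted p under 0.05 in limma over all clusters tested, and 2.33% of the clusters met it, 2.13% higher and 0.198% lower. All 10 members had a positive log2 change, as had 39.6% of all clusters, and the median change was 1.17 against -0.053 over all clusters. In 9 of 10 members every punicalagin array lay above every DMSO array, which held for 8.39% of all clusters. Myricetin raised 1 member relative to DMSO, CD180 (0.509% of all clusters were changed, 0.438% higher). Quercetin raised 3, TLR1, TLR2 and TLR4 (3.92% of all clusters were changed, 2.8% higher). The median change of the members was 0.47 with myricetin and 0.25 with quercetin, against 0.0025 and -0.036 over all clusters. The 3 comparisons share the DMSO arrays. Without the punicalagin array of passage 6, 7 or 8 the count for punicalagin was 2, 1 or 6 of 10, and without the DMSO array of passage 6, 7 or 8 it was 4, 2 or 3. With 1 array left out it was 0 to 2 for myricetin, 0 without either myricetin array or the DMSO array of passage 7 and 2 without the DMSO array of passage 8. For quercetin it was 1 to 4, 1 without either quercetin array and 2 without the DMSO array of passage 7.

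**Figure D1:**
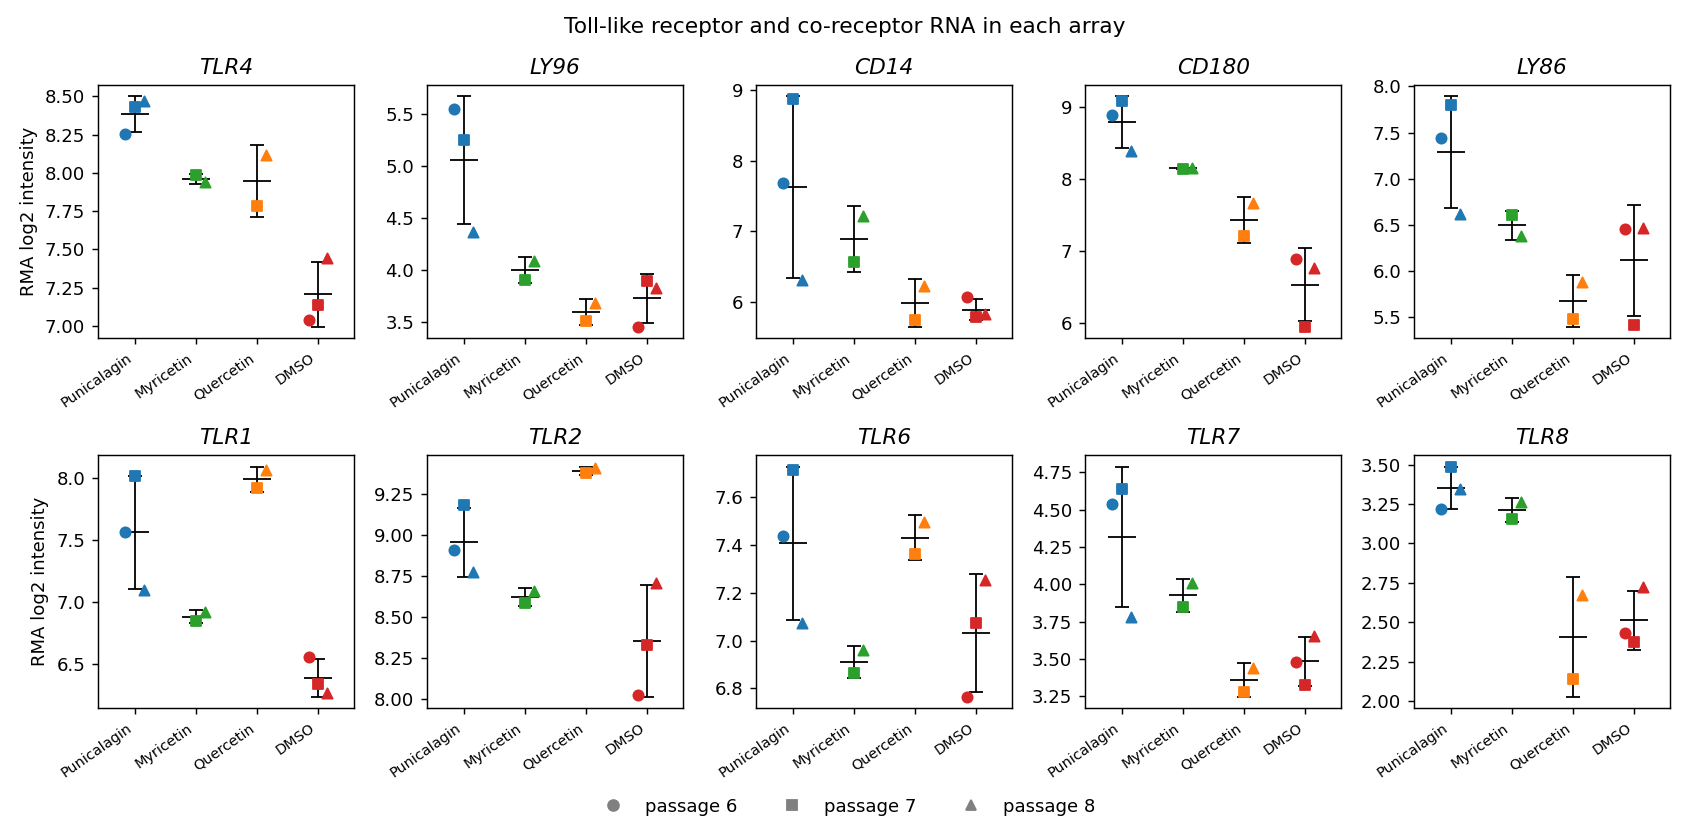
RMA log2 intensity of each gene (vertical axis, with its own range in each panel) in the 10 arrays by treatment (horizontal axis). Each symbol is 1 array and its shape gives the passage, the long line is the group mean and the bars are ± 1 SD (n = 3 for punicalagin and DMSO, n = 2 for myricetin and quercetin). The TLR4 values of the punicalagin arrays, 8.25 to 8.47, lie above those of the DMSO arrays, 7.04 to 7.45.

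The first role is the LPS receptor. TLR4 (transcript cluster 8157524), the signalling receptor itself, had values of 8.25, 8.43 and 8.47 in the punicalagin arrays of passages 6, 7 and 8, against 7.04, 7.14 and 7.45 in the DMSO arrays of the same passages. It measured 7.98 and 7.94 in the myricetin arrays and 7.78 and 8.12 in the quercetin arrays of passages 7 and 8. All arrays with a compound thus lay above all DMSO arrays, and the punicalagin arrays lay above the rest. The change with punicalagin was 1.18 ± 0.16 (SE), or 2.26-fold with a 95% interval of 1.77 to 2.89 (adjusted p = 0.00719). Without the punicalagin array of passage 7 the adjusted p was 0.0574. With quercetin the change was 0.74 ± 0.16 (1.67-fold, adjusted p = 0.0271), and this call was lost without the quercetin array of passage 7 (adjusted p = 0.0741), that of passage 8 (0.374) or the DMSO array of passage 7 (0.0780). With myricetin it was 0.75 ± 0.16 (1.69-fold, adjusted p = 0.0825), which passed without the DMSO array of passage 8 (0.0383).

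LY96 (cluster 8146934), without which TLR4 does not bind LPS, measured 5.55, 5.25 and 4.37 with punicalagin, against 3.45, 3.90 and 3.83 with DMSO. The punicalagin arrays lay above the DMSO arrays without overlap, but those of passages 6 and 7 by more than that of passage 8. The change of 1.33 ± 0.28 (2.51-fold, interval 1.61 to 3.92) missed the threshold with an adjusted p of 0.0503, and was just inside it when the passage was fitted as a block (adjusted p = 0.0496) and without the punicalagin array of passage 8 (1.67, adjusted p = 0.00642). The flavonol arrays stayed near the lower quartile of the array. LY96 was at 3.91 and 4.08 with myricetin and at 3.51 and 3.68 with quercetin, with changes of 0.27 ± 0.28 (adjusted p = 0.902) and -0.13 ± 0.28 (adjusted p = 0.909) relative to DMSO.

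CD14 (cluster 8114612), the carrier that delivers LPS, varied more among the punicalagin arrays than any other member, with an SD of 1.29. Its values were 7.68, 8.88 and 6.30 with punicalagin, against 6.06, 5.78 and 5.82 with DMSO. Every punicalagin array was above every DMSO array, and the one of passage 8 was the nearest to them. The change was 1.73 ± 0.52 (3.32-fold, interval 1.47 to 7.48, adjusted p = 0.161). It was 2.39 without that array (adjusted p = 0.00892) and 1.10 without the punicalagin array of passage 7 (adjusted p = 0.329). In the myricetin arrays CD14 measured 6.56 and 7.22, above every DMSO array, a change of 1.00 ± 0.53 (adjusted p = 0.671). That SE rests on a spread shared with the punicalagin arrays. With only the myricetin and DMSO arrays in limma it was 0.22 (adjusted p = 0.290). In the quercetin arrays it measured 5.74 and 6.23, which overlapped with DMSO (change 0.098 ± 0.53, adjusted p = 0.968).

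CD180 (cluster 8112428) changed most among the members with punicalagin. It measured 8.90, 9.08 and 8.39 in the punicalagin arrays, 8.14 and 8.15 in the myricetin arrays, 7.20 and 7.66 in the quercetin arrays and 6.88, 5.94 and 6.76 in the DMSO arrays. The 4 groups did not overlap and were ordered punicalagin, myricetin, quercetin, DMSO from high to low. The change with punicalagin was 2.26 ± 0.27, or 4.80-fold with an interval of 3.13 to 7.36 (adjusted p = 0.00465), and it passed without each of the 6 arrays in turn. With myricetin it was 1.62 ± 0.28 (3.08-fold, interval 2.01 to 4.71, adjusted p = 0.0286). This call was lost without the myricetin array of passage 7 (adjusted p = 0.344), that of passage 8 (0.317) or the DMSO array of passage 7 (0.0529). With quercetin the change was 0.90 ± 0.28 (adjusted p = 0.117), which passed without the DMSO array of passage 6 (0.0348).

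LY86 (cluster 8116734), which CD180 needs to reach the cell surface, measured 7.44, 7.80 and 6.62 with punicalagin, against 6.46, 5.42 and 6.47 with DMSO. The lowest punicalagin array, that of passage 8, was only just above the DMSO arrays of passages 6 and 8. The change was 1.17 ± 0.35 (2.25-fold, interval 1.29 to 3.91, adjusted p = 0.168). LY86 was at 6.61 and 6.38 with myricetin and at 5.48 and 5.88 with quercetin, so that the myricetin arrays overlapped with the DMSO arrays and the quercetin arrays lay within their range, with changes of 0.38 ± 0.36 (adjusted p = 0.890) and -0.44 ± 0.36 (adjusted p = 0.680).

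The lipoprotein receptors had their highest group means with quercetin, that of TLR6 by less than its spread. TLR1 (cluster 8099834) measured 7.92 and 8.06 with quercetin, 7.57, 8.02 and 7.10 with punicalagin, 6.85 and 6.92 with myricetin and 6.56, 6.35 and 6.27 with DMSO. All arrays with a compound lay above the DMSO arrays, and quercetin overlapped with punicalagin. The change with quercetin was 1.60 ± 0.22, or 3.03-fold with an interval of 2.17 to 4.25 (adjusted p = 0.00171), and it passed without each array in turn. The change with punicalagin was 1.17 ± 0.23 (2.25-fold, interval 1.58 to 3.21, adjusted p = 0.0331). That call was lost without the punicalagin array of passage 6 (adjusted p = 0.151) or 7 (0.116), and without the DMSO array of passage 7 (0.135) or 8 (0.0950). With myricetin the change was 0.49 ± 0.22 (adjusted p = 0.571).

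TLR2 (cluster 8097903), the common partner of TLR1 and TLR6, measured 9.38 and 9.41 with quercetin, against 8.03, 8.33 and 8.71 with DMSO. The quercetin arrays lay above all other arrays. The change was 1.04 ± 0.19 (2.05-fold, interval 1.53 to 2.76, adjusted p = 0.0110), and it did not pass without the quercetin array of passage 7 (adjusted p = 0.111) or 8 (0.134). With punicalagin TLR2 measured 8.91, 9.18 and 8.77, above every DMSO array, the nearest of which was that of passage 8, and the change was 0.60 ± 0.20 (1.52-fold, adjusted p = 0.223). With myricetin it measured 8.58 and 8.66, within the range of DMSO, and the change was 0.27 ± 0.19 (adjusted p = 0.816).

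TLR6 (cluster 8099841) passed the test in no comparison with DMSO. Its values were 7.44, 7.71 and 7.07 with punicalagin, 6.86 and 6.96 with myricetin, 7.36 and 7.50 with quercetin and 6.77, 7.07 and 7.25 with DMSO. The punicalagin array of passage 8 lay within the DMSO arrays. The changes were 0.38 ± 0.20 with punicalagin (adjusted p = 0.529), -0.12 ± 0.20 with myricetin (adjusted p = 0.956) and 0.40 ± 0.20 with quercetin (adjusted p = 0.384). TLR1 and TLR6 are close in sequence and both lie on chromosome 4, and whether the probes of one also read RNA of the other was not tested.

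The endosomal RNA receptors were dim. TLR8 (cluster 8166065) lay below the lower quartile on all 10 arrays. It measured 3.22, 3.49 and 3.35 with punicalagin, against 2.43, 2.37 and 2.73 with DMSO, and the groups did not overlap. The change was 0.84 ± 0.15 (1.79-fold, interval 1.40 to 2.28, adjusted p = 0.0278). This call was lost without the punicalagin array of passage 6 (adjusted p = 0.0983), 7 (0.137) or 8 (0.0661) and without the DMSO array of passage 7 (0.131). TLR8 was at 3.16 and 3.26 with myricetin (change 0.70 ± 0.18, adjusted p = 0.171) and at 2.14 and 2.67 with quercetin (change -0.11 ± 0.18, adjusted p = 0.878), so that the myricetin arrays lay above the DMSO arrays and the quercetin arrays did not.

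TLR7 (cluster 8166059), which like TLR8 is on chromosome X, lay below the lower quartile on 2 of 3 DMSO arrays and on both quercetin arrays. It measured 4.54, 4.64 and 3.78 with punicalagin, against 3.48, 3.32 and 3.65 with DMSO. The groups did not overlap, but the punicalagin array of passage 8 came close to the DMSO array of the same passage. The change was 0.83 ± 0.23 (1.78-fold, interval 1.24 to 2.56, adjusted p = 0.125), and 1.10 without that punicalagin array (adjusted p = 0.0187). TLR7 was at 3.85 and 4.005 with myricetin (change 0.44 ± 0.23, adjusted p = 0.645) and at 3.28 and 3.44 with quercetin (change -0.13 ± 0.23, adjusted p = 0.886).

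**Figure D2:**
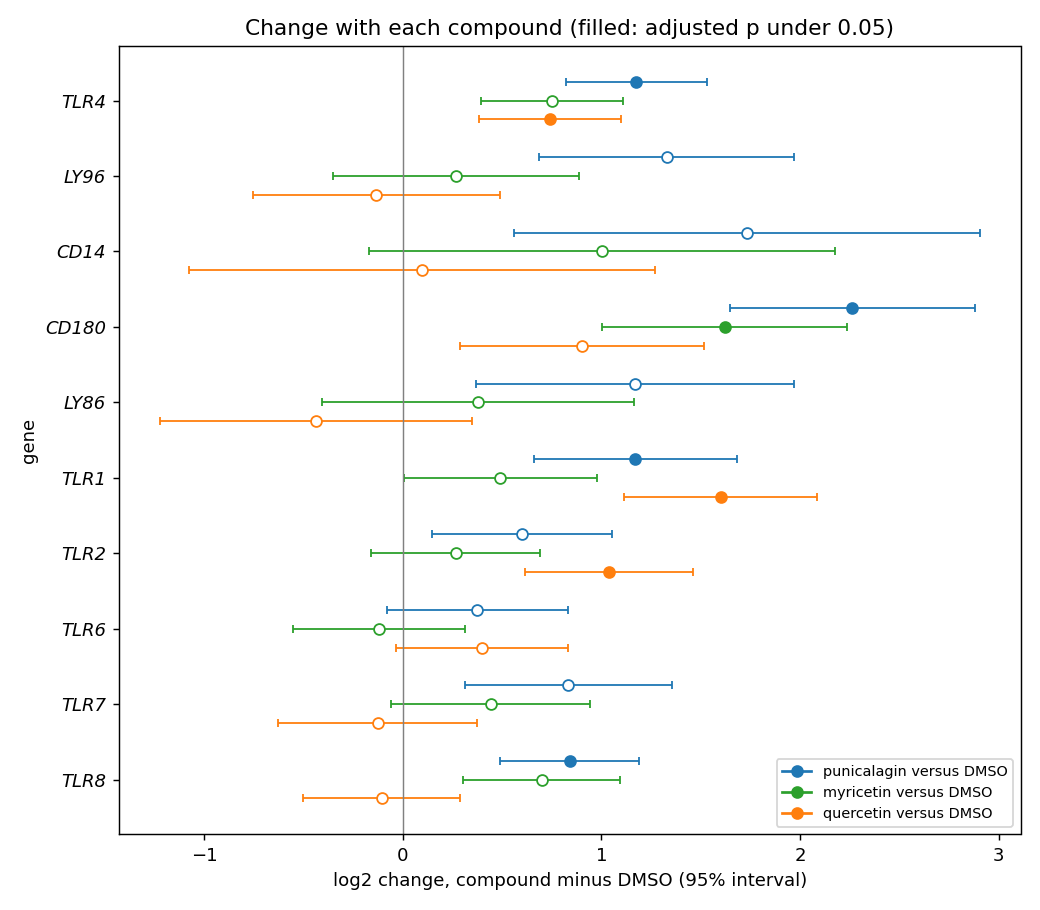
Log2 change of each gene with each compound relative to DMSO (horizontal axis), with 95% intervals of limma, by gene (vertical axis). Filled points had an adjusted p under 0.05, which were 4 genes with punicalagin, 1 with myricetin and 3 with quercetin, and the grey line marks no change.

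The compounds were then set against each other in 3 comparisons, each at 24 h. Since neither the doses nor the PMA concentration of the flavonol arrays are given, a difference between compounds cannot be told apart from one of dose or, for punicalagin against a flavonol, of PMA. Punicalagin and quercetin differed in 5 members, all higher with punicalagin (3.91% of all clusters differed, 2.06% higher). These were LY96, CD180, LY86, TLR7 and TLR8, that is both partner proteins, the RP105 receptor and both endosomal receptors. Among these, TLR8 lay below the lower quartile on every array, TLR7 on both quercetin arrays and LY96 on the quercetin array of passage 7. A filter at the median intensity removed LY96, TLR7 and TLR8, and with it CD180 (adjusted p = 0.0175) and LY86 (0.0251) still passed in limma. Of the lipoprotein receptors none differed, and all 3 had negative differences. Myricetin and quercetin differed in 1 member, TLR1, which was lower with myricetin (1.7% of all clusters differed, 1.16% lower). Punicalagin and myricetin differed in none by limma, with 6 of 10 at an unadjusted p under 0.05 (8.92% of all clusters) and with 0.528% of all clusters past the threshold.

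Between punicalagin and quercetin, the difference of LY96 was 1.46 ± 0.28 (2.75-fold, interval 1.79 to 4.23, adjusted p = 0.0153) and that of TLR8 was 0.95 ± 0.18 (1.93-fold, interval 1.46 to 2.53, adjusted p = 0.0143). LY86 had the largest difference of the 5 genes, 1.60 ± 0.36 (3.04-fold, interval 1.76 to 5.24, adjusted p = 0.0307). CD180 differed by 1.36 ± 0.28 (2.57-fold, interval 1.68 to 3.94, adjusted p = 0.0206) and TLR7 by 0.96 ± 0.23 (1.95-fold, interval 1.38 to 2.75, adjusted p = 0.0397). Among all members, 7 had every punicalagin array above both quercetin arrays, as had 16.8% of all clusters. In 1 member, TLR2, every punicalagin array lay below both, as in 19.3% of all clusters. The 5 genes are among the 7, but they were picked by a test of the same arrays, so their separation adds no evidence. The calls of the 5 genes rest on few arrays. Without the quercetin array of passage 7 the adjusted p of the 5 genes was 0.219 to 0.380, and without that of passage 8 only TLR8 passed. Without the punicalagin array of passage 6 or 7 the other 4 genes had adjusted p of 0.0507 to 0.136, and with the passage as a block LY86 (0.0619) and TLR7 (0.0746) did not pass. CD14 differed by 1.63 ± 0.53 (adjusted p = 0.138), by 2.29 without the punicalagin array of passage 8 (adjusted p = 0.00640) and by 1.004 without that of passage 7 (adjusted p = 0.231). TLR4 differed by 0.44 ± 0.16 (interval 0.078 to 0.79, adjusted p = 0.198). The differences of TLR1 (-0.43 ± 0.22), TLR2 (-0.44 ± 0.19) and TLR6 (-0.023 ± 0.20) had adjusted p of 0.387, 0.292 and 0.981.

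Between the flavonols, which differ by the hydroxyl group of the B ring, 1 of 10 members passed. TLR1 was lower with myricetin than with quercetin by 1.11 ± 0.24 on the log2 scale (interval of the difference -1.64 to -0.58, adjusted p = 0.0461). The call was lost without any 1 of the 4 flavonol arrays (adjusted p 0.232 to 0.339). TLR2 had a difference of -0.77 ± 0.21 (interval -1.24 to -0.31, adjusted p = 0.103) and TLR8 one of 0.80 ± 0.20 (interval 0.37 to 1.24, adjusted p = 0.0695), the second of which passed when the passage was a block (adjusted p = 0.0397). TLR6 (-0.52 ± 0.22, adjusted p = 0.326) and TLR2 both lay lower in the 2 myricetin arrays than in the 2 quercetin arrays. For TLR4 the difference was 0.012 with an interval of -0.38 to 0.40, which leaves room for a change of that size either way.

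Between punicalagin and myricetin the largest difference was that of LY96, 1.06 ± 0.28 (2.08-fold, interval 1.36 to 3.20, adjusted p = 0.147), which passed without the punicalagin array of passage 8 (1.40, adjusted p = 0.0120), as did TLR1 (0.91 without that array, adjusted p = 0.0375). All 10 differences were positive, as were 37.5% of those of all clusters. The intervals of TLR4 (0.066 to 0.78), CD180 (0.028 to 1.26), LY86 (0.0030 to 1.58), TLR1 (0.20 to 1.17) and TLR6 (0.063 to 0.93) did not include 0, with adjusted p of 0.278 to 0.557. The difference of CD14 was 0.73, and 0.10 without the punicalagin array of passage 7 and 1.39 without that of passage 8. The intervals of CD14 (-0.44 to 1.90), TLR2 (-0.092 to 0.76), TLR7 (-0.11 to 0.89) and TLR8 (-0.25 to 0.54) included 0.

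**Figure D3:**
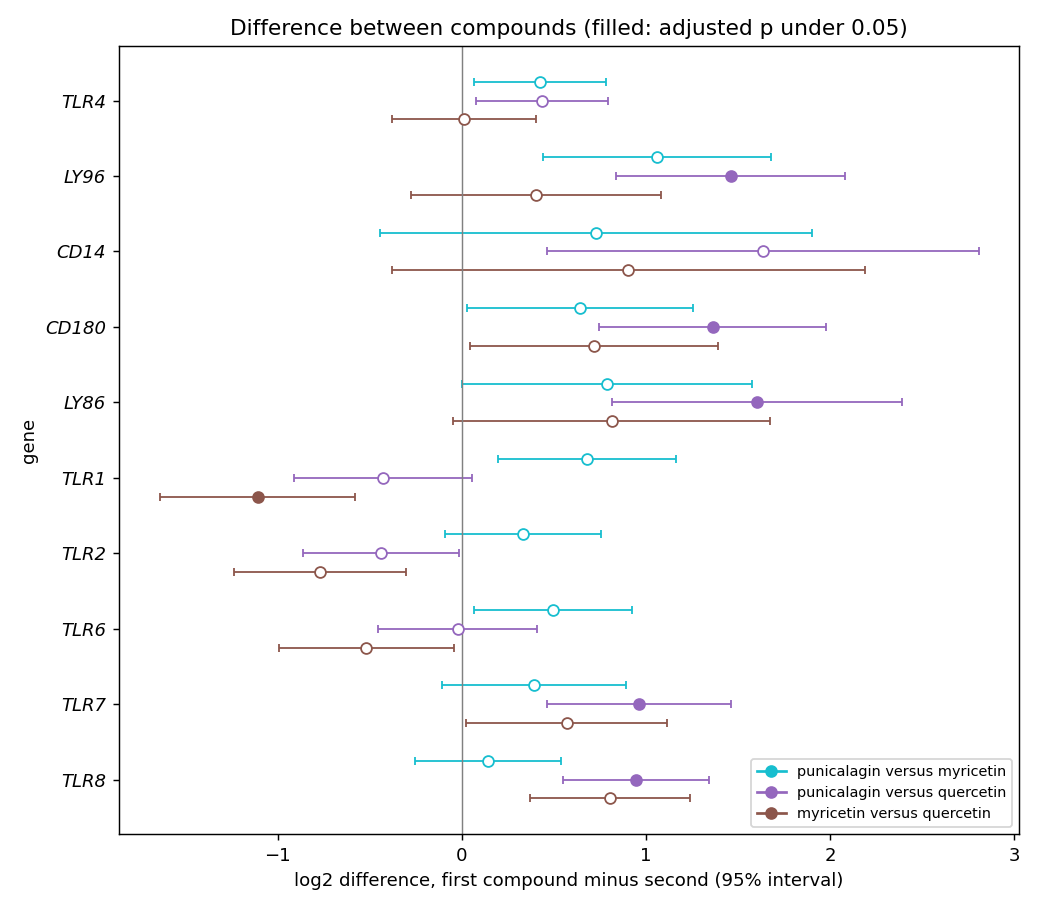
Log2 difference of each gene between compounds, the first named minus the second (horizontal axis), with 95% intervals of limma, by gene (vertical axis). Filled points had an adjusted p under 0.05. They are 5 genes higher with punicalagin than with quercetin and TLR1, which was lower with myricetin than with quercetin.

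The genes that make, serve and answer these receptors were counted by lists. In punicalagin against DMSO the proteins that fold, move and cleave Toll-like receptors had 2 of 11 measured genes higher and none lower (median change 0.51), beside the 2.13% and 0.198% of all clusters that were higher and lower. HSP90B1, the endoplasmic reticulum chaperone on which most Toll-like receptors depend for folding, averaged 11.49 with punicalagin and 10.56 with DMSO (change 0.93 ± 0.13, adjusted p = 0.00970). CTSL, a lysosomal protease able to cleave endosomal receptors, rose by 0.99 ± 0.18 (adjusted p = 0.0286). Other carriers and co-receptors of the ligands had 4 of 10 higher and none lower (median 0.60). The 2 scavenger receptors among them changed most. CD36, which binds oxidized lipoproteins and assists TLR2 with TLR6, averaged 10.48 with punicalagin and 6.16 with DMSO (20.0-fold, adjusted p = 6.9e-04), and MSR1, scavenger receptor A, averaged 11.06 with punicalagin and 7.02 with DMSO (16.5-fold, adjusted p = 8.4e-04). MERTK, a receptor for apoptotic cells that restrains Toll-like receptor signalling, rose by 1.44 ± 0.27 (adjusted p = 0.0315), and RNASET2, a lysosomal ribonuclease that makes RNA fragments for TLR8, by 0.77 ± 0.14 (adjusted p = 0.0278). Of the other Toll-like receptors, TLR3 (0.30 ± 0.18, adjusted p = 0.585) and TLR9 (0.0043 ± 0.14, adjusted p = 0.995) did not pass. Of these genes CD36 and MSR1 passed without each of the 6 arrays in turn. Without the punicalagin array of passage 6, CTSL, HSP90B1, MERTK and RNASET2 had adjusted p of 0.145, 0.0537, 0.152 and 0.141. Without that of passage 7 they had 0.141, 0.0592, 0.156 and 0.126, and without the DMSO array of passage 7 they had 0.109, 0.0577, 0.123 and 0.0786. CTSL (0.0676), MERTK (0.0852) and RNASET2 (0.0775) were also lost without the DMSO array of passage 8, and CTSL (0.0566) and RNASET2 (0.0576) without the punicalagin array of passage 8.

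Downstream of the receptors no listed gene passed as higher with punicalagin, while over all clusters 2.13% were higher and 0.198% lower. At such a share few higher calls would arise in lists of this size, so their absence says little. Positive changes were seen in 8 of 20 adaptors and kinases, 3 of 17 inhibitors and 7 of 29 NF-κB targets. They were also seen in 2 of 15 interferon genes and 3 of 7 transcription factors, beside 39.6% of all clusters. Of 20 adaptors and kinases none passed (median -0.12). IRAK2 (-0.50 ± 0.16, adjusted p = 0.196) and MYD88 (-0.50 ± 0.23, adjusted p = 0.457) were the ones with the largest changes. Inhibitors of the pathway had 2 of 17 lower (median -0.35), BCL3, an IκB protein of the nucleus, which fell by 1.10 ± 0.17 on the log2 scale (adjusted p = 0.0167), and NFKBIA, which holds NF-κB in the cytoplasm and is itself an NF-κB target, by 0.98 ± 0.17 (adjusted p = 0.0220). Among NF-κB targets that LPS induces, 3 of 29 were lower and none higher (median -0.32). SOD2, the mitochondrial superoxide dismutase, averaged 8.29 with punicalagin and 9.65 with DMSO (change -1.36 ± 0.17, adjusted p = 0.00596). TRAF1, an adaptor of TNF receptors, changed by -1.25 ± 0.17 (adjusted p = 0.00827) and NFKB1, the precursor of the p50 subunit, by -0.80 ± 0.17 (adjusted p = 0.0456). TNF itself changed by -0.55 ± 0.50 (adjusted p = 0.751) and IL1B by -0.85 ± 0.34 (adjusted p = 0.345), both chosen after their values were seen. None of 15 interferon genes passed (median -0.19), with IFIT2 at -0.43 ± 0.20 and MX2 at -0.43 ± 0.23. None of 7 transcription factors passed (median -0.048), among them SPI1, which encodes PU.1 (-0.47 ± 0.15, adjusted p = 0.217), and IRF8 (0.57 ± 0.22, adjusted p = 0.315). SOD2 passed without each array in turn, TRAF1 did not without the punicalagin array of passage 6 (0.0599), and NFKB1 was lost without any 1 of the 6 arrays (0.0537 to 0.190). BCL3 and NFKBIA were lost without the punicalagin array of passage 6 (0.0787 and 0.126) or 7 (0.0965 and 0.108), and NFKBIA without the DMSO array of passage 7 (0.0954).

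With myricetin, CD36 (3.45 ± 0.26, adjusted p = 2.8e-04) and MSR1 (3.31 ± 0.32, adjusted p = 0.00144) were the 2 genes of the lists that passed against DMSO (0.438% of all clusters were higher), and both passed without each array in turn. With quercetin genes of the lists passed in both directions, beside 2.8% of all clusters higher and 1.13% lower. CD36 (3.99 ± 0.26, adjusted p = 1.4e-05), MSR1 (3.55 ± 0.32, adjusted p = 1.0e-04) and MERTK (1.56 ± 0.27, adjusted p = 0.00772) rose, as did CTSL (1.23 ± 0.18, adjusted p = 0.00242), while CNPY3, which assists HSP90B1 in folding these receptors, fell by 0.99 ± 0.23 (adjusted p = 0.0388). Of 29 NF-κB targets 2 rose and 1 fell. These were the chemokine genes CXCL1 (1.93 ± 0.20, adjusted p = 2.7e-04) and CCL20 (1.90 ± 0.46, adjusted p = 0.0449), and NFKBIZ (-0.78 ± 0.17, adjusted p = 0.0284). Of 15 interferon genes 3 rose and 1 fell, with MX2 (1.04 ± 0.24, adjusted p = 0.0339), MX1 (0.97 ± 0.18, adjusted p = 0.0113) and CXCL10 (0.96 ± 0.14, adjusted p = 0.00235) higher and IRF1, which was named after its value was seen, lower (-0.67 ± 0.15, adjusted p = 0.0309). Among 17 inhibitors IRAK3, a kinase relative that blocks IRAK signalling, fell by 1.82 ± 0.23 (adjusted p = 8.6e-04) and the deubiquitinase gene CYLD by 0.65 ± 0.15 (adjusted p = 0.0359), while DUSP1, a phosphatase of MAP kinases, rose by 1.66 ± 0.33 (adjusted p = 0.0150). CEBPB was the 1 of 7 transcription factors that rose (1.36 ± 0.34, adjusted p = 0.0488). Without the quercetin array of passage 7 or of passage 8, CD36, MSR1, CXCL1 and IRAK3 passed both times. CTSL had an adjusted p of 0.0551 and CXCL10 of 0.0638 without that of passage 8. The highest adjusted p without 1 array was 0.121 for MERTK, 0.152 for DUSP1 and 0.187 for MX1, and 0.249 for NFKBIZ, 0.265 for MX2, 0.302 for CEBPB, 0.312 for CCL20, 0.313 for CYLD and 0.323 for CNPY3, each without 1 of the 2 quercetin arrays. NFKBIZ, MX2, CEBPB, CCL20, CYLD and CNPY3 were also lost without the DMSO array of passage 7 (0.0836 to 0.128) or 8 (0.0732 to 0.120), and DUSP1 without that of passage 7 (0.0517).

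**Figure D4:**
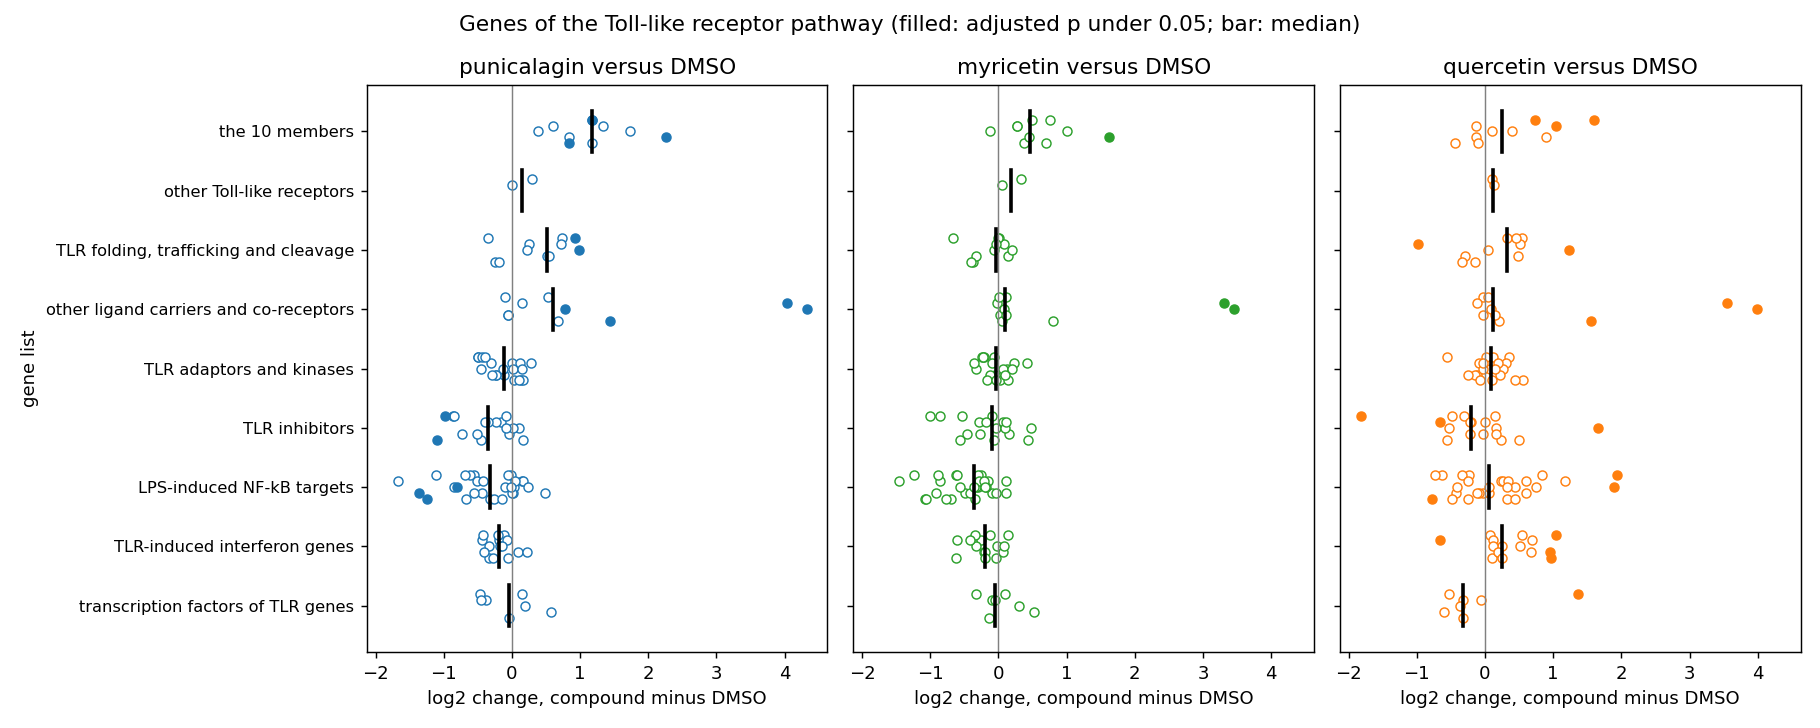
Log2 change of each measured gene relative to DMSO (horizontal axis) by list (vertical axis), 1 panel per compound. Each point is 1 gene, filled at an adjusted p under 0.05, and the black bar is the median of the list, which for the 10 receptor and co-receptor genes at the top was 1.17 with punicalagin, 0.47 with myricetin and 0.25 with quercetin.

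Punicalagin and quercetin also differed in the genes of the response. Over all clusters 2.06% were higher and 1.85% lower with punicalagin. Of 29 NF-κB targets 5 were lower with punicalagin and none higher. They were SOD2, TRAF1 and the chemokine genes CXCL1 (-1.95 ± 0.20, adjusted p = 7.2e-04), CCL20 (-1.87 ± 0.46, adjusted p = 0.0483) and CXCL2 (-1.69 ± 0.32, adjusted p = 0.0136). SOD2 differed by -1.25 ± 0.18 (adjusted p = 0.00361) and TRAF1 by -0.77 ± 0.19 (adjusted p = 0.0472). Of 15 interferon genes 5 were lower and none higher. They were MX2 (-1.47 ± 0.24, adjusted p = 0.00741), MX1 (-1.31 ± 0.18, adjusted p = 0.00320), OAS2 (-1.08 ± 0.24, adjusted p = 0.0309), CXCL10 (-0.88 ± 0.14, adjusted p = 0.00639) and RSAD2 (-0.76 ± 0.18, adjusted p = 0.0409). Of 17 inhibitors IRAK3 and SIGIRR were higher and 5 were lower, DUSP1 (-1.75 ± 0.33, adjusted p = 0.0131) and TNIP1 (-1.002 ± 0.19, adjusted p = 0.0151) by the most. SOD2, TRAF1, CXCL10, RSAD2 and SIGIRR were named here after their values were seen, and how their calls held without 1 array was not examined. Of 20 adaptors and kinases IRAK2 (-0.86 ± 0.16, adjusted p = 0.0143) and TRAF3 (-0.72 ± 0.17, adjusted p = 0.0409) were lower. The ribonuclease gene RNASET2 was the 1 of 10 carriers and co-receptors that was higher (0.68 ± 0.16, adjusted p = 0.0376), and of 11 folding and cleavage genes 2 were higher, CNPY3 by 1.24 ± 0.23 (adjusted p = 0.0140) and CTSS by 0.83 ± 0.20 (adjusted p = 0.0403). Among the transcription factors IRF8 was higher by 1.17 ± 0.23 (adjusted p = 0.0174). CXCL1 passed without each array in turn. Without the quercetin array of passage 7 the adjusted p was 0.120 to 0.487 for CCL20, CXCL2, MX2, OAS2, DUSP1, TNIP1, IRAK2, IRAK3, TRAF3, RNASET2, CNPY3, CTSS and IRF8, and without that of passage 8 it was 0.0608 to 0.214 for these genes and 0.0542 for MX1. Without 1 of the punicalagin arrays, CCL20, CXCL2, OAS2, DUSP1, TNIP1, IRAK2, IRAK3, TRAF3, RNASET2, CTSS and IRF8 were lost at least once (0.0507 to 0.128).

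Myricetin and quercetin differed in 3 of 29 NF-κB targets and 4 of 15 interferon genes, all lower with myricetin, as were 1.16% of all clusters. The chemokine genes CXCL1 (-2.24 ± 0.22, adjusted p = 6.4e-04), CXCL2 (-2.04 ± 0.35, adjusted p = 0.0148) and CXCL8 (-1.40 ± 0.25, adjusted p = 0.0209) made up the first group, and MX1 (-1.60 ± 0.20, adjusted p = 0.00268), MX2 (-1.38 ± 0.26, adjusted p = 0.0247), CXCL10 (-1.16 ± 0.15, adjusted p = 0.00360) and RSAD2, which was named after its value was seen (-1.10 ± 0.20, adjusted p = 0.0209), the second. CTSL was lower by 1.04 ± 0.20 on the log2 scale (adjusted p = 0.0244). CXCL1 passed without each of the 4 arrays in turn, and CXCL2, CXCL8 and CTSL were lost without any 1 of them, with adjusted p of 0.0637 to 0.234. MX2 was lost likewise (0.0984 to 0.248), and MX1 and CXCL10 without the myricetin array of passage 7 (0.0561 and 0.0718) or the quercetin array of passage 8 (0.0549 and 0.0693). Between punicalagin and myricetin, where 0.519% of all clusters were higher, 1 gene of the lists passed, HSP90B1, which was higher with punicalagin by 0.92 ± 0.16 (adjusted p = 0.0364) and had an adjusted p of 0.576 without the myricetin array of passage 8.

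Over the 10 arrays the clusters with 1 symbol whose values followed TLR4 most closely, of 19459, were SLC45A3, a solute carrier (Pearson's r = 0.983), SDC2, a heparan sulfate proteoglycan (0.974), CTSC, a lysosomal protease (0.971), PECAM1, an adhesion molecule (0.969), and FCGRT, the neonatal Fc receptor (0.966). SDC2 averaged 10.40 with punicalagin, 9.60 with myricetin, 9.72 with quercetin and 8.44 with DMSO. CTSC averaged 10.77, 10.09, 10.12 and 8.78 in the same groups. These correlations run over arrays that share treatments, and so do those among the members, where the 45 pairs ranged between 0.057 for LY86 with TLR2 and 0.94 for CD14 with TLR7. TLR4 correlated with CD180 at 0.90 and with its own partner LY96 at 0.64, and TLR1 with TLR2 at 0.87.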

How the data were processed

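Each of 10 THP-1 samples was measured on 1 Affymetrix Human Gene 1.0 ST array. The authors deposited log2 intensities per transcript cluster, made with RMA (background correction, quantile normalization, probe summary), for which the submitters' notes list Partek 7.0 beside Affymetrix Expression Console. Whether all arrays were normalized together and the genome build of the probes are not given in the sources used here. The table holds 33297 clusters. By GEO's platform annotation 19460 have 1 symbol, 1754 have several and 12083 have none. The 21214 clusters with any symbol entered the tests, dim ones included, without further normalization.

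Differences were fitted with limma 3.58.1 in R 4.3.3 (lmFit, eBayes, two-sided) and adjusted by Benjamini and Hochberg over all clusters of a comparison (threshold 0.05). Punicalagin and DMSO were compared on their 6 arrays, the other 5 comparisons on all 10 with a shared spread. Errors are the SE of limma, and n (2 or 3 arrays a group) limits the precision. The fit was tested on simulated data with independent clusters and no passage or array effect, so that test does not cover such effects. From each list the text names up to 4 genes with the largest change past the threshold for punicalagin against DMSO (up to 2 where none passed) and up to 3 past it in other comparisons, and the 5 clusters that correlate best with TLR4. The genes and lists were chosen with earlier results of these data known. A listed gene counts as measured where a cluster carries its symbol alone. The study's methods name no block, so the passage was a block only in an alternative. Punicalagin and DMSO arrays of the same passage deviated from their group means with correlations of 0.362, -0.0967 and 0.319. Those of different passages did so with -0.442 to 0.331, and whether arrays of a passage were paired was not tested. Sequences come from RefSeq, with motifs counted in Python 3.11.15.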

Additional observations from a re-analysis of the deposited data

How the results depend on the processing

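Each group holds 2 or 3 arrays, and where 1 of 2 was left out the remaining one was assumed to vary like the other groups. TLR8 lay below the lower quartile on all arrays and LY96 and TLR7 on some, and a filter at the median intensity removed these 3 genes. Each gene had 1 cluster, so another choice of cluster was not run. Dose, RNA quality and cross-hybridization were not tested. Small shifts of a count between settings are left out below. In quercetin against DMSO, for example, limma lost TLR4 with all clusters of the table tested (adjusted p = 0.0665). With array weights CD180 passed as well (adjusted p = 0.00818).

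Of the counts of changed members, that for punicalagin against DMSO (4) became 2 with all clusters of the table tested and 0 with the methods' t-test after Benjamini-Hochberg (6 of 10 at an unadjusted p under 0.05), and 1 to 6 with 1 array left out. With this t-test unadjusted and a 2-fold change 4 passed, TLR4, LY96, CD180 and TLR1. For myricetin (1) it became 0 with all clusters (limma, 3 unadjusted), 2 with array weights and 0 with only the arrays of both groups (limma, 6 unadjusted), and 0 to 2 with 1 array left out. For quercetin (3) it became 1 with only the arrays of both groups and 1 to 4 with 1 array left out. For punicalagin against myricetin (0) it became 1 with array weights and 0 to 2 with 1 array left out. For punicalagin against quercetin (5) it became 2 with all clusters, 2 above the median intensity, 3 with the passage as a replicate block, 3 on the 8 arrays of passages 7 and 8, 3 on these with the block, and 0 to 6 with 1 array left out. For myricetin against quercetin (1) it became 0 with all clusters, 0 with arrays centred on their median, 6 with array weights, 2 with the block, 8 with only the arrays of both groups, 3 on the 8 arrays, 2 on these with the block and 0 with any 1 array left out.

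Of all clusters, 494 were changed by punicalagin (452 higher, 42 lower). This became 206 with all clusters of the table, 951 with array weights, 1014 on all 10 arrays, 1142 on these with the block, 0 with the methods' t-test after Benjamini-Hochberg (2264 unadjusted), 896 on the 8 arrays and 127 to 660 with 1 array left out. For myricetin (108) it became 50 with all clusters, 533 with weights, 227 with the block, 7 with only the arrays of both groups, 361 on the 8 arrays, 271 on these with the block and 5 to 335 with 1 left out. For quercetin (832) it became 2539 with weights, 377 with only the arrays of both groups, 1607 on the 8 arrays, 1354 on these with the block and 240 to 1639 with 1 left out. For punicalagin against myricetin (112) it became 0 with all clusters (limma, 2445 unadjusted), 184 above the median intensity, 53 with a trended and robust spread, 485 with weights, 18 on the 8 arrays with the block and 0 to 361 with 1 left out. For punicalagin against quercetin (830) it became 502 with all clusters, 2448 with weights and 66 to 794 with 1 left out. For myricetin against quercetin (361) it became 155 with all clusters, 2560 with weights, 703 with the block, 2505 with only the arrays of both groups, 1077 on the 8 arrays, 829 on these with the block and 54 to 67 with 1 left out.

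Changes of sign were seen in values near 0. TLR8 with quercetin ranged between -0.37 and 0.16 with 1 array left out, the highest without the quercetin array of passage 7, and was at 0.0024 without the DMSO array of passage 8. CD14 with quercetin ranged between -0.14 (without the quercetin array of passage 8) and 0.34. TLR6 in punicalagin against quercetin was at 0.036 with the block and ranged between -0.18 and 0.14 with 1 array left out, the highest without the punicalagin array of passage 8, and was at 0.043 without the quercetin array of passage 8. TLR4 in myricetin against quercetin was at -0.034 with centred arrays and ranged between -0.16 (without the quercetin array of passage 7) and 0.18, with -0.010 without the myricetin array of passage 7. TLR9 with punicalagin was at -0.021 after a further quantile normalization and at -0.059 on the 8 arrays with or without the block, and ranged between -0.074 (without the punicalagin array of passage 6) and 0.046, with -0.015 without the DMSO array of passage 7. Where no value shows it, the cause of a change was not tested. The replicate block changed the calls of LY96 with punicalagin, of LY86 and TLR7 in punicalagin against quercetin and of TLR8 in myricetin against quercetin, and of no other member.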
